A study of Mus musculus with 8 samples.

Results

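miR-126a, miR-143 and miR-145a are widely used as miRNA readouts of blood vessels, and 5 mature arms of them were selected by name among the 1881 mouse miRNAs that the array carried: mmu-miR-126a-3p, mmu-miR-126a-5p, mmu-miR-143-3p, mmu-miR-145a-5p and mmu-miR-145a-3p. The 2 miR-126a arms stand for endothelium, and the 3 arms of miR-143 and miR-145a for smooth muscle and mural cells. 4 of the 5 were detected on all 8 arrays, and miR-145a-3p was detected on none. The samples were 4 kidneys labelled ischemia-reperfusion injury (IRI) and 4 labelled sham, each read on its own single-colour array. All mice were male C57BL/6 animals aged 9 weeks, and no genetic change is named for either group. In IRI mice the right kidney was removed and the vessels of the left kidney were clamped for 25 or 45 min under isoflurane, and the kidney was taken 12 or 24 h later. Sham mice received an abdominal incision and kept both kidneys, so that nephrectomy and ischemia cannot be told apart here. The labels assign no clamp time or harvest time to a sample, and do not say that the samples are separate animals, so the p-values below describe the spread among these 8 samples, which may be technical.

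miRNAs are short RNAs that guide repression of mRNAs through their seed, the stretch near the 5′ end that pairs with the target. miR-126 is processed from an intron of Egfl7, an endothelial gene, and is known in mouse for favouring VEGF signalling and vessel integrity by repressing Spred1 and Pik3r2. miR-143 and miR-145a are made together from 1 precursor transcript under serum response factor and myocardin, and in mouse they keep smooth muscle contractile through targets such as Klf4 and Elk1. In the kidney, miR-126 is carried by the endothelium of peritubular capillaries, glomeruli and larger vessels, and mural cells comprise arteriolar smooth muscle, pericytes and mesangial cells.

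The miR-126a sequences are shown because the array reads both arms of this hairpin, and because the opposite DNA strand carries a further hairpin, miR-126b. In the RefSeq table of build GRCm38.p6, Mir126a lay inside Egfl7, on the plus strand. The mature sequence of miR-126a-3p (chr2:26591402-26591423) is given with its seed, bases 2 to 8, in capitals, and 1 of 1679 mature entries of the table, this one, held that seed. The hairpin (chr2:26591357-26591429) has in capitals the stretches that the array probes of both arms read. The mature miR-126b-5p, from the minus strand (chr2:26591399-26591420), shares 19 positions of the genome with miR-126a-3p and is its antisense there. The longer probe of each miR-126a arm is a DNA oligonucleotide, in capitals throughout because all of it pairs with the hairpin.
mmu-miR-126a-3p: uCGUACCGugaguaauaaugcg
Mir126a hairpin: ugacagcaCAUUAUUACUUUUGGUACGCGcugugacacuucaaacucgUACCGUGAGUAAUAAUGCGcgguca
mmu-miR-126b-5p: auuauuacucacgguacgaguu
miR-126a-3p probe: CGCATTATTACTCACGGTA
miR-126a-5p probe: CGCGTACCAAAAGTAATAATG
The miR-126a-3p probe is the reverse complement of hairpin bases 49 to 67 and the miR-126a-5p probe of bases 9 to 29, counted from the 5′ end. The 5′-most bases of mature miR-126a-3p, with the start of its seed, lie outside the probe.

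On the arrays, 317 miRNAs were flagged as detected by the scanner software on every array and 478 on 1 or more. The 379 detected on all 4 arrays of a group were tested. Detected miRNAs numbered 393 to 447 on IRI arrays and 327 to 379 on sham arrays. The 75th percentile of signal over the 317 miRNAs was 500 ± 55.9 on IRI arrays and 406 ± 49.8 on sham arrays (SD, n = 4 each), and each array was divided by it. A scaled signal is therefore a level relative to the upper quartile of that array, and a log2 change is the IRI mean minus the sham mean of log2 scaled signals. All arrays shared 1 slide, with IRI arrays in slide row 2 and sham arrays in slide row 1, so that row and group cannot be told apart. In each of the slide columns 1 to 4 there was an IRI array and a sham array. Columns 1, 2 and 3 held replicates 1, 2 and 3 of both groups, and column 4 held IRI replicate 18 and sham replicate 6.

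All 4 detected arms had lower scaled signals in IRI kidneys, with changes of -20.0% for miR-126a-3p to -30.8% for miR-145a-5p, except that the change of miR-126a-3p turned to 0.13 with quantile normalization and to 0.00032 with spike-in scaling, on the log2 scale. The 4 arms passed the test (limma, adjusted p below 0.05 over 379 miRNAs), and in each of them the 4 IRI arrays lay below the 4 sham arrays. Of all tested miRNAs, 36.7% were called lower and 12.1% higher, and for 35.9% all IRI values lay below all sham values. When only the 317 miRNAs detected on all arrays were tested, 139 of them were called lower and 31 higher. The median change of the 4 arms was -0.40, beside -0.11 over all tested miRNAs and -0.19 over the 317 detected on all arrays. In whole-kidney RNA, fewer cells of a type and less RNA per cell cannot be told apart.

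miR-126a-3p, the endothelial guide strand, had scaled signals of 4186, 4111, 3856 and 3723 on IRI arrays 1, 2, 3 and 18, and 5128, 4476, 5165 and 5101 on sham arrays 1, 2, 3 and 6. The IRI arrays lay close together, and sham replicate 2 stood below the other sham arrays but 290 units above the highest IRI array. The mean was 3969 ± 217 in IRI and 4967 ± 329 in sham (SD, n = 4 each). The signal fell by 0.32 ± 0.07 (SE) on the log2 scale (95% interval -0.49 to -0.16, adjusted p = 0.0079, limma). A change lower than this was found for 32.7% of the tested miRNAs.

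miR-126a-5p, the partner strand from the 5′ arm of the same hairpin, which is known to repress Dlk1 in mouse endothelium, had signals of 135, 130, 121 and 114 in IRI and 182, 147, 168 and 152 in sham, in the same order of replicates. No IRI array reached the lowest sham array, which was replicate 2, as for the other arm. The mean was 125 ± 9.40 in IRI and 162 ± 15.9 in sham (SD, n = 4 each), and the signal fell by 0.37 ± 0.09 (SE) on the log2 scale (95% interval -0.58 to -0.16, adjusted p = 0.0105, limma).

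miR-143-3p, the guide strand of the smooth muscle transcript, had signals of 671, 605, 599 and 454 in IRI and 750, 744, 819 and 805 in sham. IRI replicate 18 was the lowest of all 8 arrays, and the groups were 73.2 units apart. The mean was 582 ± 91.4 in IRI and 779 ± 38.2 in sham (SD, n = 4 each), and the signal fell by 0.43 ± 0.12 (SE) on the log2 scale (95% interval -0.71 to -0.16, adjusted p = 0.0179, limma). Of the arrays left out in turn, sham replicate 3 was the one whose loss ended this call (adjusted p = 0.0528, limma). Among other settings it also ended with quantile normalization, without scaling, with spike-ins and with all 1881 miRNAs tested (adjusted p = 0.0541 to 0.698, limma).

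miR-145a-5p, the guide strand processed from the same transcript as miR-143, had signals of 169, 149, 144 and 107 in IRI and 194, 194, 215 and 210 in sham. It showed the same order of arrays within IRI, with replicate 18 lowest. The mean was 142 ± 26.0 in IRI and 203 ± 11.1 in sham (SD, n = 4 each), and the signal fell by 0.53 ± 0.14 (SE) on the log2 scale (95% interval -0.85 to -0.22, adjusted p = 0.0132, limma). Among the tested miRNAs, 8.44% had a change lower than this. Without IRI replicate 18 the change was -0.40 for miR-145a-5p and -0.32 for miR-143-3p, and both were still called (adjusted p = 0.0087 and 0.0109, limma).

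miR-145a-3p, the opposite arm of the miR-145a hairpin, had scaled signals of -0.36 to 3.44 in IRI and -4.86 to 5.37 in sham. It was not flagged as detected on any array and was not tested. The same held for the 4 other entries of these loci on the array, miR-126b-3p, miR-126b-5p, miR-143-5p and miR-145b, detected on 0 of 8 arrays. The antisense entries miR-126b-3p and miR-126b-5p gave signals of -8.35 to -3.56 in IRI and -9.03 to -4.89 in sham, where the miR-126a arms from the other strand were bright. miR-143-5p gave 3.27 to 8.80 in IRI and 7.18 to 11.7 in sham, and the groups overlapped.

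**Figure D1:**
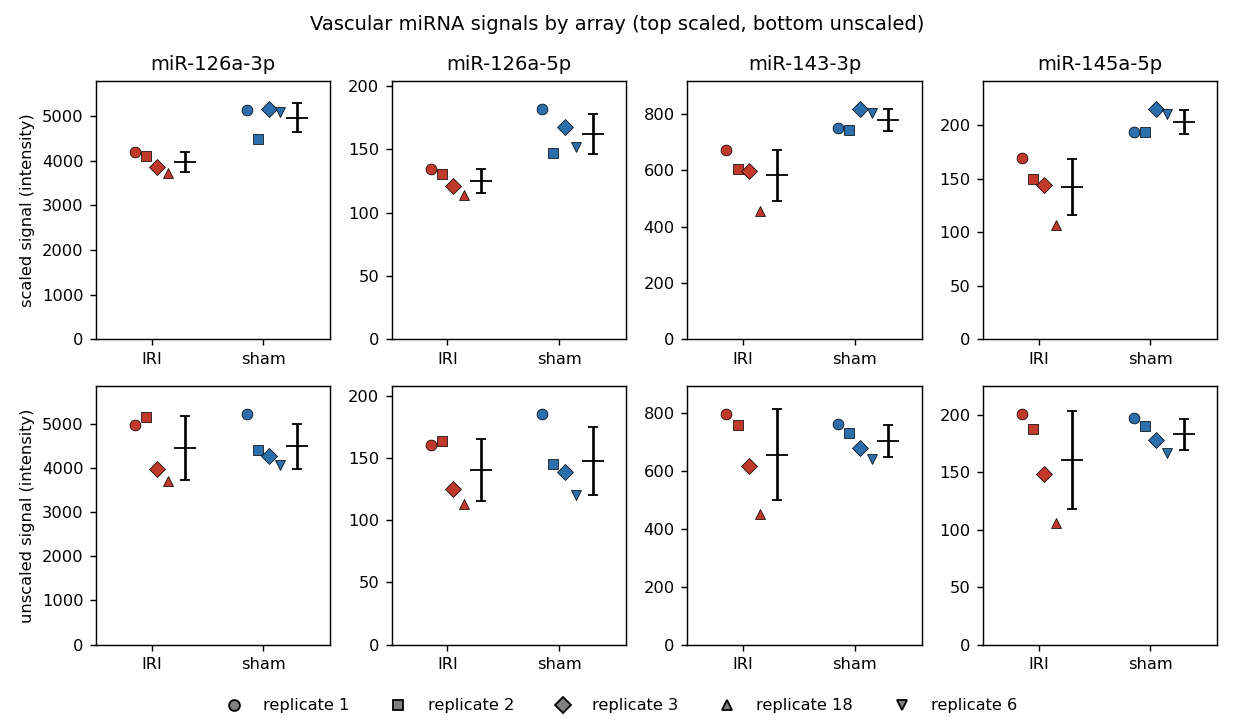
Signal of the 4 detected vascular arms on each array, after scaling to the 75th percentile (top) and without scaling (bottom), in intensity units, with IRI at left and sham at right, a symbol for each replicate number, and bars for the mean and SD of 4 arrays. Scaled signals do not overlap between groups, and unscaled signals do: miR-126a-3p averages 3969 in IRI and 4967 in sham with scaling, and 4449 in IRI and 4484 in sham without it.

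The probes of each arm were read separately. Each detected arm had 2 probes of slightly different length with 15 spots each per array. The change was -0.31 and -0.33 for the miR-126a-3p probes, -0.41 and -0.24 for miR-126a-5p, -0.46 and -0.42 for miR-143-3p, and -0.53 and -0.53 for miR-145a-5p, on the log2 scale. All 8 probes thus had a change of the same sign in scaled signal, where the factor of an array is common to all its probes. The probes were not read separately without scaling. The spot-to-spot coefficient of variation within an array lay between 1.51% and 19.8%, the highest being that of the dimmer miR-126a-5p probe, which averaged 26.5 in IRI and 31.3 in sham.

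The size of these changes depended on how the arrays were made comparable. Without scaling, miR-126a-3p averaged 4449 ± 722 in IRI and 4484 ± 509 in sham, and miR-145a-5p 161 ± 42.6 in IRI and 183 ± 13.5 in sham (SD, n = 4 each). The unscaled groups overlapped for all 4 arms. The unscaled changes were -0.02, -0.07, -0.13 and -0.23 for miR-126a-3p, miR-126a-5p, miR-143-3p and miR-145a-5p, with adjusted p of 0.934, 0.803, 0.629 and 0.435 (limma). Over all tested miRNAs, 46 were higher and 139 lower with the percentile, 53 higher and 1 lower (0.264%) without scaling, and 72 higher and 2 lower (0.528%) with spike-in scaling. No detected vascular arm was among the calls of the last 2 settings. The spike-in factor was the geometric mean of 2 controls that differed in direction. The control dmr_285 averaged 1821 in IRI and 1765 in sham, and dmr_31a averaged 457 in IRI and 486 in sham.

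The median of all tested miRNAs moved with the setting, being -0.11 with the percentile, 0.17 without scaling and 0.19 with the spike-ins. Set against that median, miR-126a-3p was -0.21 with the percentile and -0.19 with either of the other 2. miR-145a-5p was -0.42 against the median with the percentile and -0.39 with either of the other 2. These 3 settings differ by 1 factor per array, so the order of the arms and their distance from the median are nearly fixed by construction. With normexp, which is not such a factor, miR-126a-3p was -0.09 and miR-145a-5p -0.19 against the median. Quantile normalization, which gives every array the same distribution of signals, called 33.8% of miRNAs lower. It gave 0.13 for miR-126a-3p (adjusted p = 0.107, limma), -0.57 for miR-126a-5p (0.0084), -0.30 for miR-143-3p (0.0541) and -0.71 for miR-145a-5p (0.0097). The arms of miR-126a then had changes of opposite sign, and miR-126a-3p was 0.22 against the median.

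**Figure D2:**
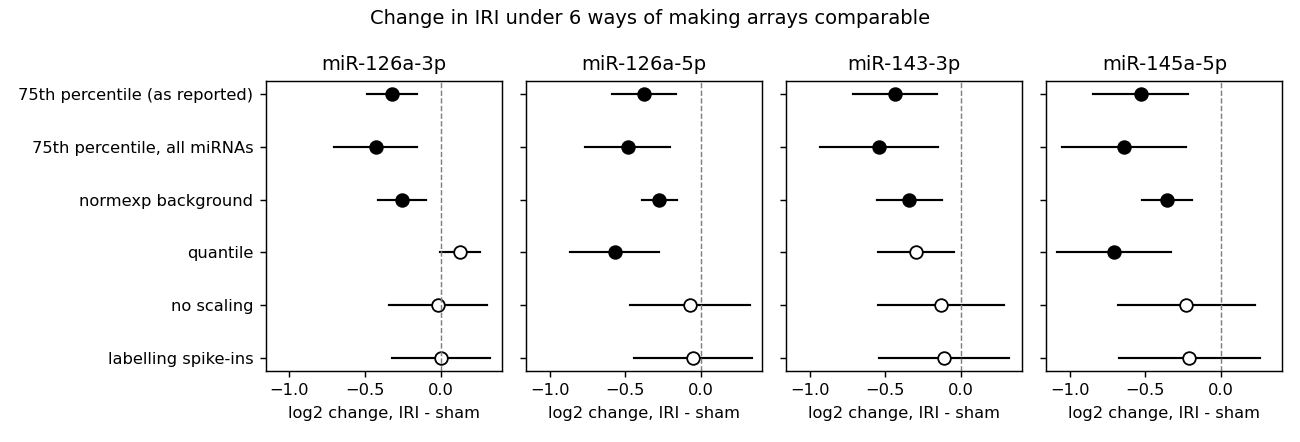
Log2 change of the 4 detected arms, IRI minus sham, under 6 ways of treating the arrays, as points with 95% intervals from limma. Filled points have an adjusted p below 0.05: all 4 arms with the 75th percentile and with normexp, miR-126a-5p and miR-145a-5p with quantile normalization, where miR-126a-3p lies at 0.13, and none without scaling or with spike-ins, where miR-126a-3p lies at -0.02 and 0.00032.

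Within slide columns, all 4 arms had lower scaled signals in IRI in 4 of 4 columns. The log2 difference within a column ranged over -0.45 to -0.12 for miR-126a-3p, -0.47 to -0.18 for miR-126a-5p, -0.83 to -0.16 for miR-143-3p and -0.98 to -0.20 for miR-145a-5p. With the column as a block all 4 arms were still called (adjusted p = 0.0315, 0.0191, 0.0444 and 0.0358, limma). Unscaled, IRI was lower in 3, 3, 2 and 3 of the 4 columns in the same order of arms. Unscaled miR-143-3p was highest in column 1 and lowest in column 4 in either group, at 796 and 451 in IRI and at 763 and 640 in sham.

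The next comparison set endothelial against mural arms within each array, where 1 scale factor per array cancels. The size of such a difference compares different probes and is not read, only its change between groups. miR-126a-3p minus miR-143-3p was 2.64, 2.77, 2.69 and 3.04 on IRI arrays and 2.77, 2.59, 2.66 and 2.66 on sham arrays. The groups overlapped, and IRI replicate 18 stood highest. The difference averaged 2.78 ± 0.18 in IRI arrays and 2.67 ± 0.08 in sham arrays (SD, n = 4 each), and these means differed by 0.11 (exact permutation test, two-sided, p = 0.343, adjusted 0.514 over 6 pairs). Without IRI replicate 18 the difference was 0.03.

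miR-126a-3p minus miR-145a-5p was 4.63, 4.78, 4.74 and 5.12 on IRI arrays and 4.72, 4.53, 4.58 and 4.60 on sham arrays. 3 of 4 IRI arrays lay above every sham array, and IRI replicate 1 lay among them. IRI arrays averaged 4.82 ± 0.21 and sham arrays 4.61 ± 0.08 (SD, n = 4 each), and these means differed by 0.21 (exact permutation test, two-sided, p = 0.0571, adjusted 0.171). Without IRI replicate 18 the difference was 0.11. Within slide columns it was higher in IRI in 3 of 4, over -0.09 to 0.52. A change in the balance of endothelial and mural guide strands was thus not detected, in a design whose smallest unadjusted p is 0.0286. A pair alone at that minimum has an adjusted p of 0.171 over the 6 pairs (exact permutation test). The adjusted test could therefore not have called such a pair.

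The partner strand gave 0.06 for miR-126a-5p minus miR-143-3p and 0.16 for miR-126a-5p minus miR-145a-5p (exact permutation p = 0.514 and 0.257, adjusted 0.514 for either). Both had IRI replicate 18 as the highest array, and without it they were -0.01 and 0.07. With quantile normalization, which changes ranks of signal into common values and so does not cancel, miR-126a-3p minus miR-143-3p changed by 0.43 and miR-126a-3p minus miR-145a-5p by 0.83 (exact permutation p = 0.0286 for either). The partner strand then gave -0.27 against miR-143-3p, the opposite direction, and 0.14 against miR-145a-5p.

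Arms of 1 locus were compared in the same way. miR-126a-3p minus miR-126a-5p was 4.96, 4.98, 4.99 and 5.03 in IRI and 4.82, 4.92, 4.94 and 5.07 in sham, so that the IRI values lay inside the sham range (difference of means 0.05, exact permutation p = 0.429, adjusted 0.514). With quantile normalization this difference was 0.70. miR-143-3p minus miR-145a-5p was 1.99, 2.02, 2.05 and 2.09 in IRI and 1.95, 1.94, 1.93 and 1.94 in sham. Here the groups did not overlap, and the sham arrays were nearly equal. IRI arrays averaged 2.04 ± 0.04 and sham arrays 1.94 ± 0.01 (SD, n = 4 each), and these means differed by 0.10 (exact permutation p = 0.0286, the smallest value reachable with 70 assignments of arrays, and 0.171 after adjustment over the 6 pairs). The difference was higher in IRI in 4 of 4 slide columns, by 0.04 to 0.15, and was 0.02 with normexp background correction (exact permutation p = 0.771).

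**Figure D3:**
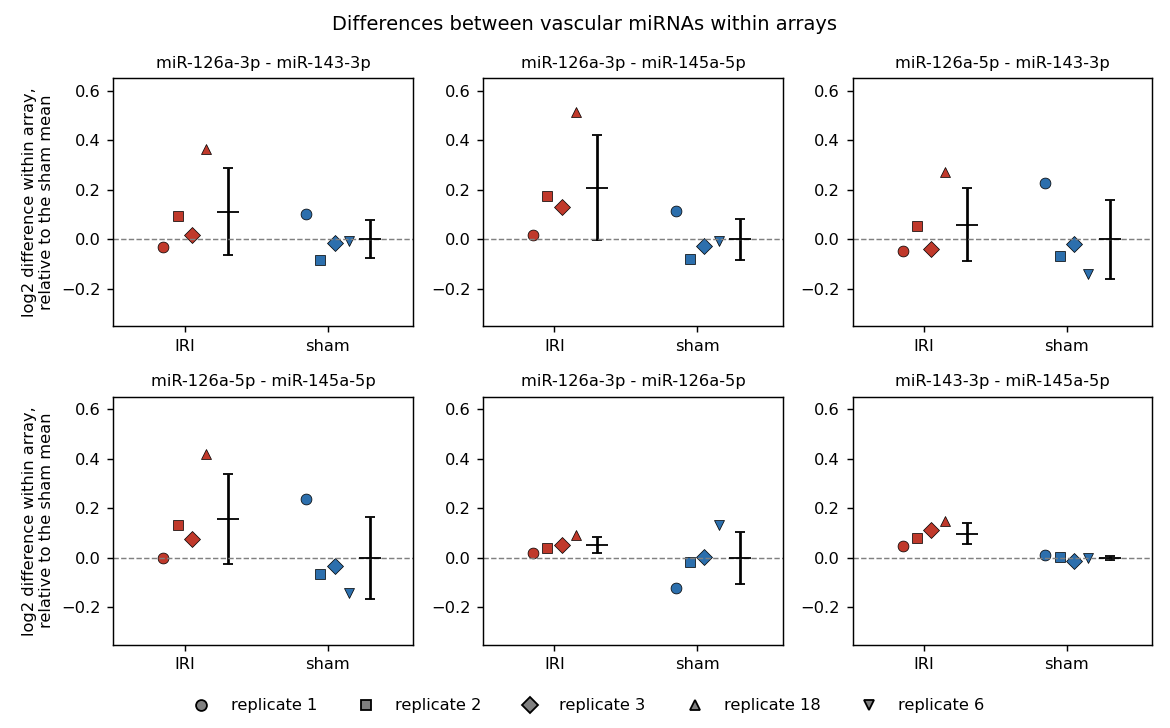
Log2 difference between 2 arms within each array, drawn relative to the sham mean of that pair, for 6 pairs, with IRI at left, sham at right, a symbol for each replicate number, and bars for the mean and SD of 4 arrays. IRI replicate 18 is the highest array in the 4 endothelial-minus-mural pairs, and the groups are apart in 1 of 6 pairs, miR-143-3p minus miR-145a-5p.

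Likeness of profiles was measured as the root mean square difference between 2 miRNAs' log2 scaled signals, each centred on its own mean over the 8 arrays, among the 317 miRNAs detected on all arrays. As it holds the group difference itself, it is a description. The profile of miR-145a-5p ranked second of 316 for miR-143-3p, and miR-143-3p ranked second of 316 for miR-145a-5p, at 0.056. The miR-126a arms were less alike in rank, miR-126a-5p being at rank 31 for miR-126a-3p and miR-126a-3p at rank 10 for miR-126a-5p, at 0.072. The mural arms stood at ranks 93 and 139 for miR-126a-3p. In turn, miR-126a-3p stood at rank 39 for miR-143-3p (0.130) and at rank 64 for miR-145a-5p (0.174).

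Nearest to miR-126a-3p were miR-151-5p (0.037), miR-27b-3p (0.037) and miR-361-5p (0.044), against a median of 0.193 over all. Nearest to miR-126a-5p were miR-340-5p (0.040), miR-23b-3p (0.055) and miR-152-3p (0.066). miR-100-5p (0.052), miR-326-3p (0.070) and miR-199a-3p (0.074) were the nearest to miR-143-3p outside its locus, and miR-326-3p (0.053), miR-181b-5p (0.075) and miR-100-5p (0.097) to miR-145a-5p. IRI replicate 18 was the lowest IRI array for all 4 of these neighbours of the mural arms and for 4 of the 6 neighbours of the miR-126a arms, miR-151-5p, miR-340-5p, miR-23b-3p and miR-152-3p. miR-100-5p, for one, had 156, 136, 135 and 112 in IRI and 167 to 184 in sham.

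Other miRNAs known from endothelium or angiogenesis were less uniform. Of 11 listed, 9 were tested, 4 were called lower and 0 higher, with a median change of -0.17, beside 36.7% lower and a median of -0.11 over all tested. The 4 included miR-130a-3p, which represses antiangiogenic homeobox genes in human endothelium (-0.44), and miR-100-5p, a repressor of mTOR (-0.39). Also called were the 2 brightest of the list, miR-24-3p (-0.25) and miR-23a-3p (-0.24), which are made in many cell types. The other 5 had changes of -0.17 to 0.15, among them miR-92a-3p. Without scaling the list's median was 0.13, beside 0.17 over all tested miRNAs, and 7 of 9 had a change above 0. The sign of both medians thus turned with the setting.

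Of 8 other mural, muscle and fibroblast miRNAs, 5 were tested, 2 were called lower and 0 higher, with a median change of -0.39, beside 36.7% lower over all tested. miR-199a-3p, the brightest, which with miR-214 comes from a transcript of mesenchymal cells, had 709, 627, 639 and 439 in IRI and 705 to 801 in sham, a change of -0.37 that was not called (adjusted p = 0.0665, limma). miR-199b-5p had 207, 197, 204 and 120 in IRI and 222 to 268 in sham, and fell by 0.51 (adjusted p = 0.0469, limma). miR-1a-3p, a miRNA of striated and smooth muscle, had dim signals of 13.6 to 19.5 in IRI and 21.4 to 29.2 in sham and was called lower (-0.54). Some of its IRI values lie below the floor of 17.3, so the size of that change is not a measured one. All 5 had a change below 0 without scaling too, with a median of -0.09 and 0 called. IRI replicate 18 was the lowest array of all 8 for miR-199a-3p, miR-199a-5p, miR-199b-5p and miR-214-3p, as it was for both mural and both endothelial arms detected.

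**Figure D4:**
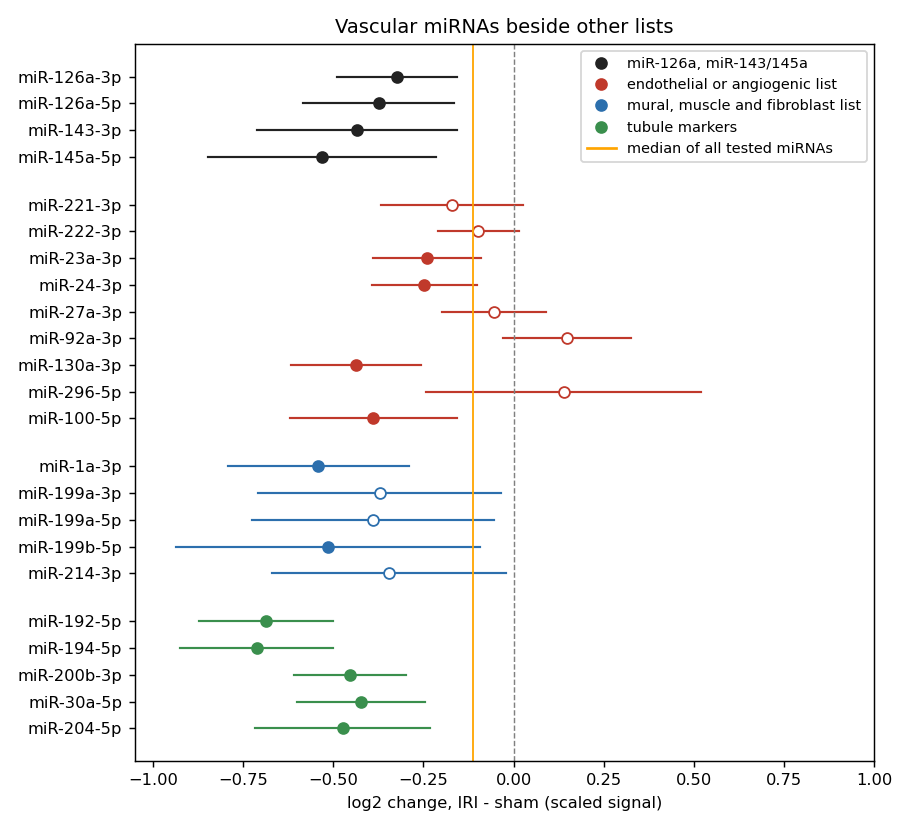
Log2 change, IRI minus sham, of scaled signals with 95% intervals (limma) for the 4 detected vascular arms, the tested miRNAs of the other endothelial and mural lists, and the tubule markers, with filled points for an adjusted p below 0.05 and a vertical line at the median of all tested miRNAs, -0.11. The vascular arms lie between -0.32 and -0.53, the endothelial list spreads from -0.44 to 0.15, and the tubule markers lie between -0.42 and -0.71. Without scaling or with quantile normalization parts of the endothelial list lie above 0. miR-126a-3p lies at 0.13 with quantile normalization and at 0.00032 with spike-ins, and is called in neither.

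Markers of other kidney cells were also called, though not all of them, beside 36.7% lower and 12.1% higher over all tested miRNAs. The 5 tubule markers, among them miR-192-5p and miR-194-5p of proximal tubule epithelium, were all called lower, with a median of -0.47 and a summed scaled signal of 12614 to 14273 in IRI and 17412 to 20068 in sham. Without scaling their changes were still below 0, at -0.41 to -0.12, and 0 of 5 were called. The 3 red blood cell miRNAs, miR-451a, miR-144-3p and miR-486a-5p, were all called higher (2 of 3 with normexp). Their sums were 2940 to 4087 in IRI and 43.0 to 902 in sham. miR-144-3p was detected on 2 of 4 sham arrays and miR-486a-5p on 0, so both entered the test only through the IRI arrays. Sham values of both lie partly or wholly below the floor of 17.3, so the size of those 2 changes is not a measured one. Of 4 leukocyte miRNAs 1 was called, miR-223-3p, which was higher, and the sums, of which miR-223-3p gave 270 to 448 in IRI and 117 to 137 in sham, were 724 to 1040 in IRI and 529 to 674 in sham. miR-150-5p had a change of -0.57 (adjusted p = 0.0566, limma) and miR-342-3p of -0.14, and 2 of the 4 were called lower with quantile normalization. The endothelial arms summed to 3836 to 4321 in IRI and 4623 to 5333 in sham, and the mural arms to 561 to 840 in IRI and 938 to 1034 in sham. Of the 4 striated muscle markers, miR-1a-3p was detected and called lower, as given above. miR-133a-3p, miR-206-3p and miR-208a-3p were detected on no array, and the liver marker miR-122-5p on 1 IRI array. The part of these cell types in the changes of the vascular arms was not tested.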

How the data were processed

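Total RNA from 30 mg of kidney was labelled with Cy3 (100 ng per array), per the labels' protocols. The deposited scanner files hold spot intensity, background-subtracted by Agilent Feature Extraction 12.0.3.1 and not normalized between arrays, per the file headers. A deposited table of linear ratios, made by the authors in a way not given in the sources used here and with scaling and centring unknown, was tried as an alternative.

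Controls were left out, and each array has 56430 spots and 4415 probes besides them. Of these spots, the outliers (1422 to 1560 per array) were also left out, and 0 were saturated. Signals were averaged over spots, summed over probes, divided by each array's 75th percentile (over the 317 miRNAs present on every array, times the percentiles' geometric mean), set to at least 17.3 (the 5th percentile of detected signals) and log2-transformed. The 379 miRNAs detected on all 4 arrays of a group entered a limma fit (version 3.58.1, R 4.3.3, two-sided, Benjamini-Hochberg), tested on simulated data. Pairs used exact permutation tests in SciPy 1.17.1. Precision is limited by the 4 arrays per group. A genome was not used here, and 1 of 5 members matched a mature sequence in the RefSeq table. Named were the 5 members, other entries of their loci, the 3 nearest profiles per detected member, and the called and 2 brightest miRNAs of the lists. Other miRNAs named, such as the markers, serve to show the setting. Members, lists and tests were chosen with earlier results of these data known. Replicate numbers were not taken to pair samples, since deviations from the group means correlated at -0.16, -0.20 and 0.24 for the 3 shared numbers. IRI replicate 3 correlated best with the sham array of its own number, and IRI replicates 1 and 2 did not.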

Additional observations from a re-analysis of the deposited data

Results flagged for a closer look

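Of 20 groups of 4 arrays examined (4 arms and 6 pairs in each of IRI and sham), 1 had an array far from the others, the number that chance gives at about 1 in 20 groups. It was sham replicate 2 for miR-126a-3p, at 12.13 on the log2 scale where the other sham arrays had 12.32 to 12.33, so that its gap to the nearest array was 0.913 of the whole sham range. Without that array the groups lie farther apart.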

How the results depend on the processing

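Of 379 tested miRNAs, 139 were lower and 46 higher in IRI. The lower count became 1 without scaling, 2 with spike-in scaling, 90 with all 1881 miRNAs tested, 12 without scaling and with the slide column as a block (chosen after seeing the data) and 50 with the replicate block (6 arrays). The higher count became 72 with spike-ins, 18 with normexp, 21 with all miRNAs tested, 81 without scaling and with the column block, and 17 with the replicate block. Leaving out 1 array gave at least 114 lower and 36 to 62 higher. miR-126a-3p reversed to 0.13 with quantile normalization and to 0.00032 with spike-ins. Quantile normalization made the changes of miR-126a-3p minus miR-143-3p (0.43) and minus miR-145a-5p (0.83) reach the smallest exact permutation p, and turned miR-126a-5p minus miR-143-3p to -0.27. Normexp gave 0.10 for miR-126a-3p minus miR-145a-5p. The causes were not tested.

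With all miRNAs tested, miR-126a-3p was still called (adjusted p = 0.0386, limma), and miR-126a-5p, miR-143-3p and miR-145a-5p were not (0.0767, 0.148 and 0.126). The replicate block holds the same pairs of arrays as slide columns 1 to 3, without column 4. It and the column block are therefore not separate checks. With the replicate block the changes of the 4 detected arms were -0.28, -0.36, -0.30 and -0.38, and none was called (adjusted p = 0.110, 0.0775, 0.0923 and 0.0788, limma). Nor was any called without scaling and with the column block. Shared numbers were not taken to mark pairs, and whether they do is not settled here. Arms at background carry no value, and the dimmest probe limits miR-126a-5p.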
